A study of Mus musculus with 2 samples.

Results

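The genes described here are 9 members of the EGR, NR4A and KLF families of transcription factors, Egr1, Egr2, Egr3, Nr4a1, Nr4a2, Nr4a3, Klf2, Klf4 and Klf6. They were chosen by their symbols, 9 of the 32589 genes in the files, with earlier results of these data known. The values behind that choice were the ratios of PD-1 inhibitor to control in endothelial cells (ECs), in which several members had been among the lowest of all genes. The ratios are therefore given as a description, and nothing rests on their direction. Each of the 9 had a UMI in both libraries, where a UMI (unique molecular identifier) stands for 1 captured transcript molecule. In ECs, 4 of the 7 members with at least 50 UMIs had a log2 ratio of -1 or lower. Among all 10694 genes with as many UMIs the share was 0.795%. The member just inside this limit was Nr4a2, at -1.48, and the member just outside it was Klf4, at -0.25.

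Single-nucleus RNA sequencing (snRNA-seq) was performed on hearts of male C57BL/6 mice that were 8 weeks old at the start. The PD-1 inhibitor group received an antibody against mouse PD-1, injected intraperitoneally at 5 mg/kg on days 1 and 14 of a cycle of 28 days, and the control group received PBS at the same times. PD-1 is an inhibitory receptor of activated lymphocytes, and antibodies against it are used to treat cancer. Each group gave 1 library, and the number of hearts in a library is not given in the sources used here. With 1 library per group there is no replicate, so no test, standard error or p-value is given. Every interval is at 95% and covers counting error only, and the spread between hearts is unknown.

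The EGR factors are zinc finger proteins whose genes are switched on within minutes by growth factors, stretch and other stimuli through serum response factor and its partners. The NR4A factors are orphan nuclear receptors that act without a known hormone, and their genes answer quickly to cyclic AMP and calcium signals through CREB. Egr1, Egr3 and the NR4A genes belong to the immediate early genes, whose transcripts appear and vanish quickly. Klf2 and Klf4 are zinc finger factors that are held high in endothelium by laminar blood flow, through the kinases MEKK3, MEK5 and ERK5 and the MEF2 factors, and they maintain a quiescent endothelium. Klf6 is expressed in many tissues and takes part in responses to injury.

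Promoter sequences are shown for the NR4A genes, whose windows hold the most matches to the CREB core among the members searched. Those of Egr2 and Klf2, whose windows hold a site named for the route to each family, are also shown. RefSeq promoter windows on GRCm38.p6, from 250 bases before to 50 bases after a start site, were at hand for 7 of the 9 members. Egr1 and Egr3 had no window, so their promoters were not searched. The letters TGACG, the core of a CREB site, were searched on both strands, and CGTCA is the same match read on the other strand. In the first 3 stretches, from Nr4a1 (chr15:101266596-101266845, plus strand), Nr4a2 (chr2:57124004-57124253, minus strand) and Nr4a3 (chr4:48045055-48045152, plus strand), capitals mark these matches. The Nr4a1 stretch lies in an intron of the longer Nr4a1 transcripts, before the start of a shorter one, and those of Nr4a2 and Nr4a3 lie upstream of the genes and in no annotated gene. In the Egr2 stretch (chr10:67537619-67537868, plus strand, in an intron of longer Egr2 transcripts), capitals mark a CArG box, the site of serum response factor. In the Klf2 stretch (chr8:72318812-72319032, plus strand, in no annotated gene), capitals mark a MEF2 box. All are printed 5′ to 3′ on the strand of the gene and end before the first annotated exon base of GENCODE vM21.
Nr4a1: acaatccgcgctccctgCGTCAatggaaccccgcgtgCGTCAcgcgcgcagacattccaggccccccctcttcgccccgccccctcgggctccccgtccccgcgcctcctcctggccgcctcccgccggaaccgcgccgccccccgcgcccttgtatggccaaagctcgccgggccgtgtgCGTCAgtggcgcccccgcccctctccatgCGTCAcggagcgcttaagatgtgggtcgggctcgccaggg
Nr4a2: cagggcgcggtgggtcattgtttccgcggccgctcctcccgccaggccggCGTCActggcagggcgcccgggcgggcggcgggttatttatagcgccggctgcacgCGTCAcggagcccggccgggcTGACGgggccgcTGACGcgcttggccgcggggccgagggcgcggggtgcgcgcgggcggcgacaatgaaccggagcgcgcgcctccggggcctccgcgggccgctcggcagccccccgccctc
Nr4a3: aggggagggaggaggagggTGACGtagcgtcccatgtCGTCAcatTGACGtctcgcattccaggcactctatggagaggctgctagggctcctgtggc
Egr2: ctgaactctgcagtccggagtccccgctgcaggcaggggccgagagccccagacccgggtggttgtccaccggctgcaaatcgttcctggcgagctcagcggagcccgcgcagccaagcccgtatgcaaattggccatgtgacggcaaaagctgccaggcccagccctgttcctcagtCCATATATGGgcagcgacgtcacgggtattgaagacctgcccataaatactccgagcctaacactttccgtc
Klf2: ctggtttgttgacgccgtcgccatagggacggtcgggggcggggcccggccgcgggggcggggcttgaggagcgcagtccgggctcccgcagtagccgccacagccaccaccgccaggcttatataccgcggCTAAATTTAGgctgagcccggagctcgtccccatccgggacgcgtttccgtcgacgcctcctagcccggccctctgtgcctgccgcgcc

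The full windows of Nr4a1, Nr4a2 and Nr4a3 each held 4 TGACG matches. Those of Egr2 held up to 2 of these matches, those of Klf2 and Klf4 held 1 each and that of Klf6 held none. The TGACG matches in the printed Egr2 and Klf2 stretches are not in capitals. For Nr4a3, 1 of the 4 lies in an exon and is not in the printed stretch. A match was present in 20.8% of all 32851 RefSeq windows of this length, but 4 or more in only 76 windows (0.231%). The longer letters TGCGTCA, which contain CGTCA and so overlap the TGACG matches, occurred 4 times in the Nr4a1 window and in 2.12% of all windows. No other window held 4 of them. The CArG box was found in windows of Egr2 and in 1.63% of all windows, and the MEF2 box in those of Klf2 and Nr4a2 and in 1.86% of all. No window of the 7 members searched held the palindrome TGACGTCA, which contains TGACG (1.79% of all windows). The EGR site GCGTGGGCG (0.612%) and the NR4A site AAAGGTCA (1.51%) matched none of the members' windows either. A match describes the letters of a window and not a bound site, and no match says only that the letters are not in that window.

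Gene spans are from the GENCODE vM21 annotation of GRCm38. Klf2 spans 2.62 kb on chromosome 8 (72319033 to 72321656), Klf4 5.32 kb on chromosome 4 (55527143 to 55532466) and Klf6 8.91 kb on chromosome 13 (5861482 to 5870394). Egr2 spans 6.71 kb on chromosome 10 (67535475 to 67542188) and Egr3 5.41 kb on chromosome 14 (70077203 to 70082614). Nr4a1 spans 20.5 kb on chromosome 15 (101254269 to 101274795), Nr4a2 17.2 kb on chromosome 2 (57106830 to 57124003) and Nr4a3 41.3 kb on chromosome 4 (48045153 to 48086447). Gene length moved with the ratios of all genes in ECs, so it is given here once: the median log2 ratio was 0.09 over 6642 genes no longer than Nr4a3 and -0.12 over 4041 longer genes. The share of genes at -1 or lower was 0.723% in the first group and 0.817% in the second.

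The matrices held 10197 control and 7967 PD-1 inhibitor barcodes, of which 9522 and 7644 nuclei were kept with a median of 1012 and 1055 UMIs. The 2 libraries shared 48 barcode sequences. Clusters were named from marker genes and are like the populations whose names they carry. ECs numbered 2806 and 2505 nuclei, fibroblasts 2475 and 1970, cardiomyocytes (CMs) 1288 and 1098, and macrophage-like cells (MPs) 1128 and 806. Mural, mesothelial, T, B and glial cells were also named, as were 154 adipocyte nuclei of the control and 16 of the PD-1 inhibitor library. Only 1 cluster, of 160 and 90 nuclei, was left unnamed. All 12 EC markers, all 12 CM markers, 11 of 12 fibroblast markers and 15 of 16 MP markers were over 2-fold higher in their type than in the other nuclei. Levels are given as counts per 1e6 UMIs of the cell type (CPM), with log2 ratios taken as PD-1 inhibitor divided by control. Values over all nuclei also depend on the mix of cell types, which differed between the libraries.

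Egr1, the best studied member of its family, had a log2 ratio under 0 in all 7 large cell types (at least 193 nuclei in each library), and its interval lay below 0 in 6 of them. Over all nuclei it had 1992 control UMIs against 377 with the PD-1 inhibitor, 164.6 and 36.6 CPM. The log2 ratio was -2.17 (-2.33 to -2.01). Fibroblasts and ECs held most of these molecules. In fibroblasts Egr1 had 1028 and 199 UMIs, 344 and 80.1 CPM, a log2 ratio of -2.10 (-2.33 to -1.88). In ECs it had 674 and 124 UMIs, 227 and 43.0 CPM, a log2 ratio of -2.40 (-2.69 to -2.12), the fifth lowest of 10694 genes. The levels in both libraries were thus highest in fibroblasts and next highest in ECs, and the Poisson intervals of the 2 types did not overlap. MPs had 51 and 8 Egr1 UMIs, for a log2 ratio of -2.19 (-3.55 to -1.18), and mesothelial cells 46 and 17, a log2 ratio of -1.80 (-2.72 to -0.998). CMs had 50 and 13, a log2 ratio of -1.65 (-2.69 to -0.79). T cells, with 8 and 2 UMIs, were the type whose interval spanned 0.

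The other EGR genes were sparse. Egr3, which is induced with Egr1 and limits lymphocyte activation, had 223 and 70 UMIs over all nuclei, a log2 ratio of -1.43 (-1.85 to -1.04). In ECs it had 64 and 15 UMIs, for a log2 ratio of -2.02 (-2.97 to -1.22), and in fibroblasts 119 and 46, a log2 ratio of -1.10 (-1.63 to -0.60). No other cell type had more than 11 Egr3 UMIs in a library. Egr2, known for its part in myelination and in lymphocytes, had 54 and 41 UMIs over all nuclei, a log2 ratio of -0.16 (-0.79 to 0.45). Most of these molecules lay in fibroblasts, with 39 and 20 UMIs, at a log2 ratio of -0.68 (-1.55 to 0.12). ECs had no Egr2 UMI among control nuclei and 5 among PD-1 inhibitor nuclei, with an interval that spans 0 (lower bound -0.09 on the log2 scale). Egr2 was thus the EGR gene whose interval spanned 0 over all nuclei, in fibroblasts and in ECs.

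**Figure D1:**
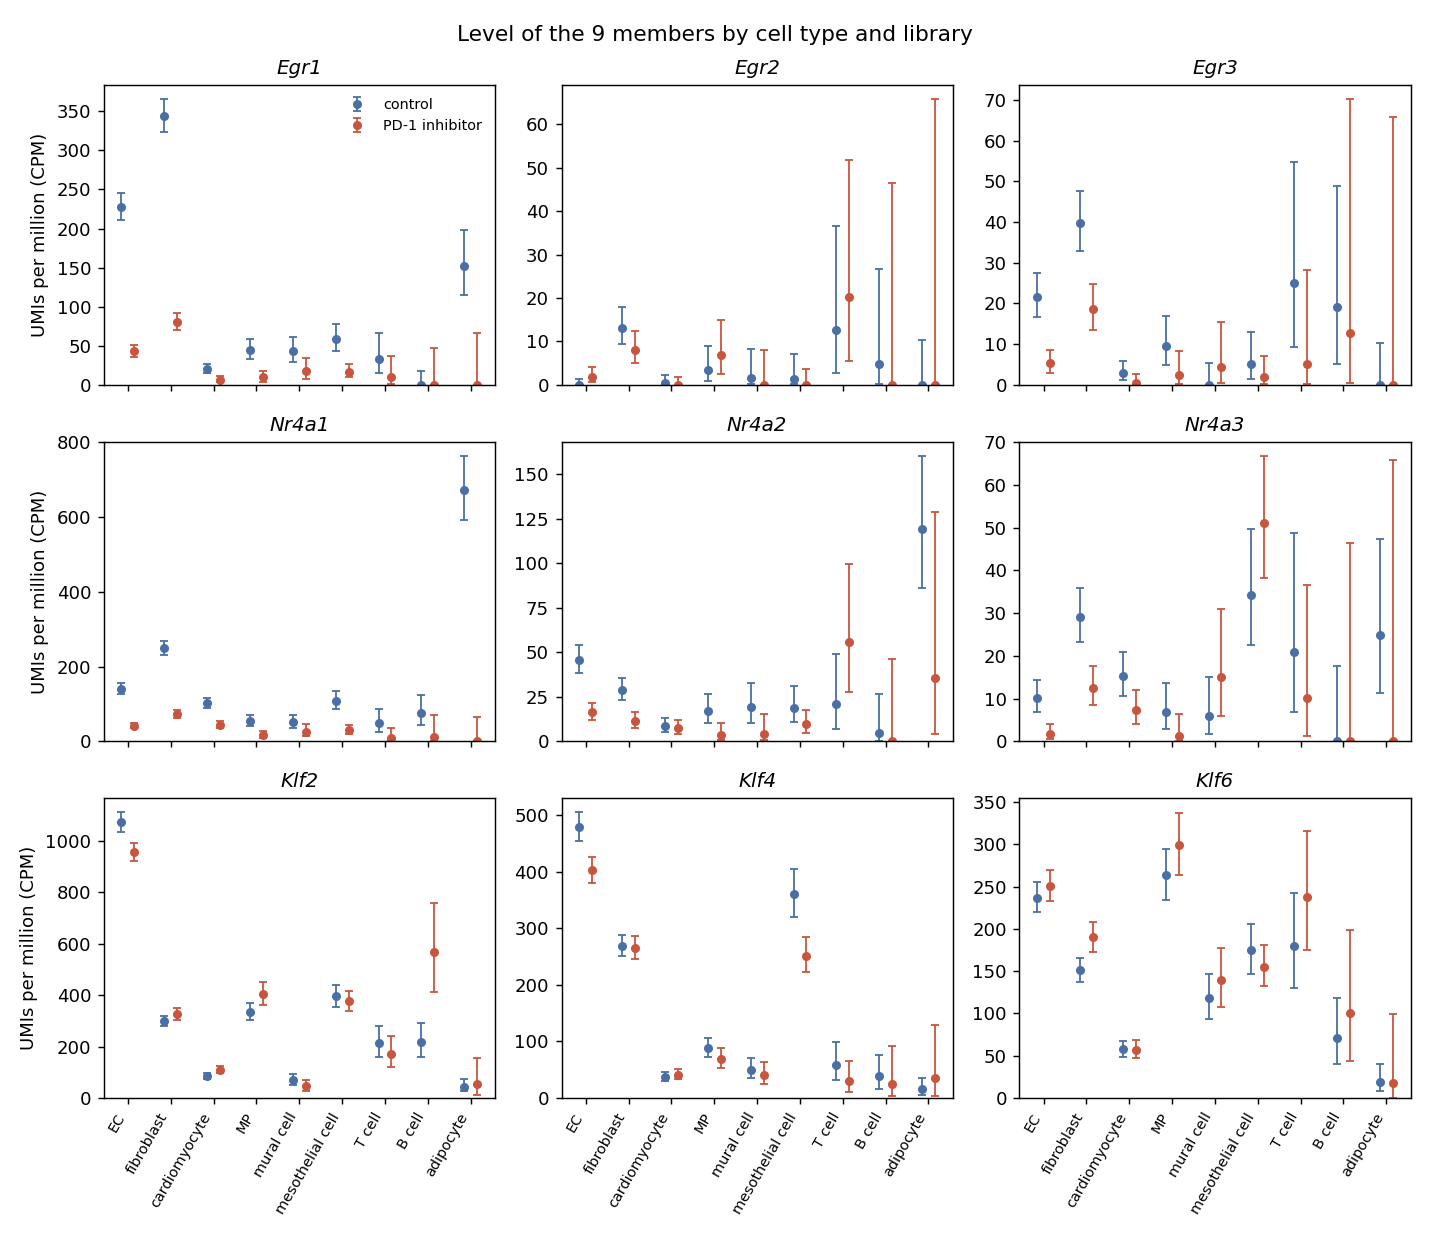
Level of each of the 9 members (CPM, linear axes that differ between panels) in 9 cell types of the control and the PD-1 inhibitor library, with exact Poisson intervals at 95%. Egr1 and Nr4a1 points of the PD-1 inhibitor library lie at or below those of the control library, while Klf2, Klf4 and Klf6 points of ECs and fibroblasts lie near each other.

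Nr4a1, the NR4A member with the most molecules here and a regulator of inflammation and metabolism, was lower in all 7 large cell types, with the interval below 0 in each. Over all nuclei it had 1905 and 458 UMIs, 157 and 44.5 CPM, a log2 ratio of -1.82 (-1.97 to -1.67). Adipocytes, with 154 and 16 nuclei, held 243 and 0 of these UMIs, so this pooled ratio also depends on the mix of cell types. In fibroblasts Nr4a1 had 746 and 180 UMIs, 249.6 and 72.4 CPM, a log2 ratio of -1.78 (-2.03 to -1.55). In ECs it had 418 and 120 UMIs, 141 and 41.6 CPM, a log2 ratio of -1.76 (-2.06 to -1.46). These 2 types differed from the control level by nearly the same ratio, while CMs differed less. In CMs Nr4a1 had 248 and 90 UMIs, 102 and 44.1 CPM, a log2 ratio of -1.20 (-1.57 to -0.85). Mesothelial cells had 86 and 31 UMIs, for a log2 ratio of -1.85 (-2.51 to -1.26), and MPs 63 and 14, a log2 ratio of -1.72 (-2.71 to -0.91). Whether the ratios of the types differ from each other was not tested.

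Adipocytes were the population with the highest Nr4a1 level in the control library, at 673 CPM from 243 UMIs, and 68 of their 154 nuclei (44.2%) had one. The 16 adipocyte nuclei of the PD-1 inhibitor library had 0, and the interval of the log2 ratio ends at -3.34. Egr1 went the same way in adipocytes, with 55 UMIs (152 CPM) and 0, and its interval ends at -1.16. Nr4a2 had 43 and 2 UMIs there, 119 and 35.7 CPM, a log2 ratio of -1.43 (-4.83 to 0.20). With 0 of 16 nuclei, a share of up to 18.8% of nuclei with a UMI is allowed (3 counts of the total). RNA of adipocyte markers outside adipocytes was also counted, because it moved with the members. The 12 markers together made up 797 and 675 CPM in ECs, where 10 of 12 were lower with the PD-1 inhibitor and 1 and 2 were at 0 in the control and the other library. They made up 1044 and 858 CPM in fibroblasts, with 10 of 12 lower and 1 and 2 at 0. Control adipocytes held 4.26 Nr4a1 UMIs per 100 adipocyte marker UMIs, while control ECs held 17.7 and control fibroblasts 23.9. The part of adipocyte RNA in the ratios was not tested.

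Nr4a2, known for its role in dopamine neurons, followed Nr4a1 in ECs and fibroblasts. In ECs it had 136 and 47 UMIs, 45.8 and 16.3 CPM, a log2 ratio of -1.48 (-2.003 to -1.004). In fibroblasts it had 86 and 28 UMIs, for a log2 ratio of -1.34 (-2.02 to -0.72). T cells had 5 and 11 Nr4a2 UMIs, for a log2 ratio of 1.34 (-0.23 to 3.29), so counting error covered both directions. Nr4a3, which shares targets with Nr4a1, differed between cell types. Fibroblasts had 87 and 31 Nr4a3 UMIs, for a log2 ratio of -1.21 (-1.86 to -0.62), and CMs 37 and 15, a log2 ratio of -1.02 (-2.02 to -0.15). ECs had only 30 and 5, below the minimum of 50 for the counts of members, a log2 ratio of -2.43 (-4.27 to -1.16). Mesothelial cells were the type with the highest Nr4a3 level in both libraries, with 27 and 53 UMIs, 34.2 and 51.1 CPM. Their log2 ratio was 0.57 (-0.11 to 1.31), and it was -0.31 as a mean over nuclei and -0.22 after thinning to 500 UMIs, so its direction was not settled.

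Among the KLF genes, Klf2 was the most endothelial, and ECs held 61.7% and 59.4% of its UMIs in the named cell types. ECs had 3180 and 2754 Klf2 UMIs, 1072 and 955 CPM, a log2 ratio of -0.17 (-0.24 to -0.09). CMs had 208 and 223, a log2 ratio of 0.36 (0.08 to 0.64), and MPs 387 and 353, a log2 ratio of 0.28 (0.06 to 0.49). In CMs and MPs Klf2 was thus on the higher side, while Egr1 and Nr4a1 were on the lower side. In B cells, where Klf2 holds cells in their resting state, it had 46 and 45 UMIs from 175 and 80 nuclei, 219 and 567 CPM. The log2 ratio was 1.37 (0.74 to 2.00), and the median depth of these nuclei was 999 and 773 UMIs. Over all nuclei Klf2 had 5256 and 4691 UMIs, for a log2 ratio of 0.07 (0.01 to 0.13). This pooled value also depends on the mix of cell types, and ECs, which held most Klf2 UMIs, were on the lower side.

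Klf4 was also highest in ECs, with 1421 and 1162 UMIs, 479 and 403 CPM, a log2 ratio of -0.25 (-0.36 to -0.14). Mesothelial cells had 285 and 261 Klf4 UMIs, 361 and 252 CPM, a log2 ratio of -0.52 (-0.77 to -0.27). In fibroblasts it had 803 and 659 UMIs, at a log2 ratio of -0.02 (-0.17 to 0.13). Klf4 was thus lower in 2 of the 3 types in which it was high. Klf6 was spread more evenly, with its highest levels in MPs, at 263 and 299 CPM, and in ECs, at 237 and 251 CPM. Its log2 ratio was 0.08 (-0.07 to 0.24) in ECs from 703 and 724 UMIs, and 0.33 (0.14 to 0.52) in fibroblasts from 451 and 472 UMIs. No cell type had a Klf6 interval below 0.

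The families were also summed. The EGR sum was lower in all 7 large cell types, from -2.31 in ECs to -0.95 in T cells, with 5 intervals below 0. The NR4A sum was lower in all 7 as well, from -1.90 in MPs to -0.26 in T cells, with 6 intervals below 0. The KLF sum ran from -0.25 in mesothelial cells to 0.20 in CMs, below 0 in 2 types (ECs and mesothelial cells) and above 0 in 3 (fibroblasts, CMs and MPs). With the same mix of clusters in both libraries the KLF sum was at 0.003 in fibroblasts and at 2.0e-05 in CMs, and its interval spanned 0 in each single cluster of both types. As a result, EGR and NR4A transcripts together made up 32.1% of the control UMIs of the 9 genes and 11.8% of those from the PD-1 inhibitor group. This share, which is not scaled by gene length, was 49.5% and 20.6% in fibroblasts, 45.3% and 24.1% in CMs, 19.95% and 6.38% in ECs, and 16.5% and 4.80% in MPs. The KLF sum held most of the molecules, so the sum of all 9 genes had a log2 ratio of only -0.38 (-0.43 to -0.32) in ECs. In 5 bins of EC nuclei by depth this sum had log2 ratios from -0.60 to -0.31.

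**Figure D2:**
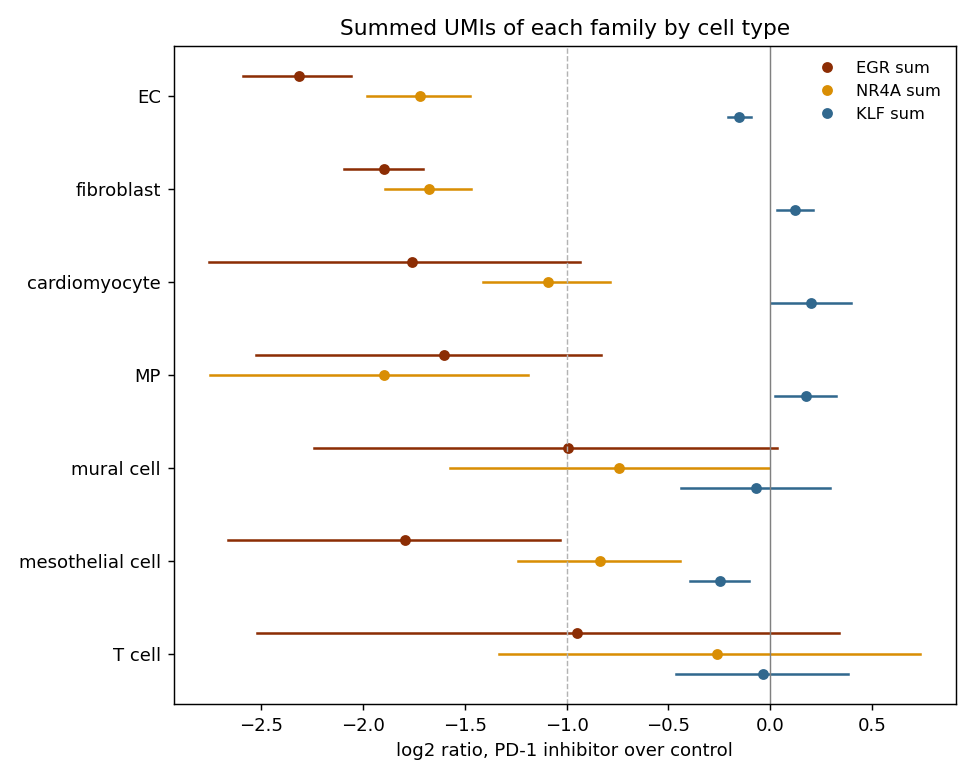
Log2 ratio, PD-1 inhibitor over control, of the summed UMIs of each family in 7 cell types, with exact intervals at 95% for counting error. The solid line marks no difference and the dashed line a log2 ratio of -1. The EGR and NR4A points lie left of 0 in every type and the KLF points lie between -0.25 and 0.20.

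The count of members at a log2 ratio of -1 or lower is set beside the same share of all genes with at least 50 UMIs. Since the members were chosen on this contrast, the count is given with nothing read from it. It was 4 of 7 members in ECs against 0.795% of 10694 genes, 5 of 9 in fibroblasts against 0.746% of 10585, and 3 of 6 in CMs against 1.16% of 9244. In MPs it was 2 of 5 against 1.29% of 7342 genes, and in mesothelial cells 2 of 6 against 0.934% of 7281. No member reached it in mural cells, where 3 were measured against 1.51% of 5115 genes, or in T cells, where 2 were measured against 3.18% of 2200 genes. In mural cells Egr1 (29 and 8 UMIs) and Nr4a1 (35 and 12 UMIs) fell short of 50 UMIs and were not in the count. Their log2 ratios were -1.25 (-2.65 to -0.15) and -0.96 (-2.08 to -0.02).

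Fibroblasts and CMs were each made up of 3 clusters, and the members were not equally low in all of them. In the fibroblast cluster led by Rgs17, Egr1 had 731 and 75 UMIs, 388 and 57.3 CPM, a log2 ratio of -2.75 (-3.12 to -2.41). In the cluster led by Cilp and Pi16 it had 276 and 108 UMIs, 294.5 and 109 CPM, a log2 ratio of -1.44 (-1.78 to -1.11). Nr4a1 had log2 ratios of -2.62 and -1.48 in the same clusters. In a small cluster led by Wif1 and Chad, Egr1 had 21 and 16 UMIs, at a log2 ratio of -0.50 (-1.55 to 0.49). In CMs, Nr4a1 stood out in the cluster led by the atrial genes Mybphl, Sln and Nppa, with 31 and 6 UMIs, 514 and 73.5 CPM, a log2 ratio of -2.71 (-4.36 to -1.52). It had a log2 ratio of -1.78 (-2.45 to -1.20) in the largest CM cluster and -0.62 (-1.15 to -0.11) in the cluster led by Acta1, Ckm and Mb. The clusters were found with Egr1, Egr3 and Nr4a1 among the 2000 variable genes, so differences between clusters are a description.

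ECs fell into 5 clusters, called endocardial (1412 and 1510 nuclei), capillary (979 and 686), lymphatic (236 and 159), arterial (95 and 74) and valve-like (84 and 76) from their markers. The 2 largest are described first. In endocardial ECs, which line the heart chambers, Egr1 had 491 and 36 UMIs, 319.6 and 20.3 CPM, a log2 ratio of -3.95 (-4.50 to -3.48). This was the second lowest of 9177 genes. However, it was -2.47 among nuclei with at least 500 genes, -2.82 with doublets kept and -3.02 at Leiden resolution 2. Under these settings Nr4a1 was at -1.63, -1.57 and -1.65. Nuclei were clustered anew for each setting, so the nuclei called endocardial changed too. The EC cluster led by Wnt9b and Hapln1 held 328 and 253 nuclei in the first setting and 437 and 277 in the second. In the reported endocardial cluster Egr3 had 52 and 5 UMIs, for a log2 ratio of -3.46 (-5.26 to -2.27). It was at -0.86 when only nuclei with at most 5% mitochondrial UMIs were clustered. Nr4a1 had 254 and 54 UMIs, for a log2 ratio of -2.43 (-2.89 to -2.01), and Nr4a2 89 and 20, a log2 ratio of -2.33 (-3.14 to -1.65). Here 4 of 7 members were at -1 or lower, against 0.752% of genes. Klf2 and Klf4 were also lower in endocardial ECs, by less. Klf2 had 1682 and 1415 UMIs, 1095 and 799.7 CPM, a log2 ratio of -0.45 (-0.56 to -0.35). Klf4 had 614 and 445 UMIs, 399.6 and 251 CPM, a log2 ratio of -0.67 (-0.85 to -0.49).

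Capillary ECs, the exchange vessels of the muscle, showed a smaller difference in Egr1 and the opposite one in Klf2 and Klf4. Egr1 had 133 and 48 UMIs, 143 and 74.1 CPM, a log2 ratio of -0.94 (-1.46 to -0.47), and Nr4a1 72 and 41, a log2 ratio of -0.29 (-0.88 to 0.28). None of 6 members was at -1 or lower, against 1.24% of 6450 genes. Klf2 had 715 and 648 UMIs, 769.96 and 999.8 CPM, a log2 ratio of 0.38 (0.22 to 0.53). Klf6 had 286 and 290 UMIs, 308 and 447 CPM, a log2 ratio of 0.54 (0.30 to 0.78), and Klf4 452 and 369 UMIs, for a log2 ratio of 0.23 (0.02 to 0.43). In endocardial ECs Klf6 was at -0.19, with an interval that spanned 0. The sum of the 9 genes thus had a log2 ratio of 0.25 (0.15 to 0.36) in capillary ECs and -0.83 (-0.90 to -0.75) in endocardial ECs. Both clusters come from the same 2 libraries, and each ratio is scaled by the UMIs of its own cluster.

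The 3 smaller EC clusters had fewer counts. In lymphatic ECs Klf6 had 63 and 96 UMIs, 238 and 466 CPM, a log2 ratio of 0.96 (0.49 to 1.45), and Nr4a1 18 and 2, a log2 ratio of -2.53 (-5.96 to -0.75). None of 3 members with 50 UMIs was at -1 or lower there, against 2.75% of genes. Valve-like ECs had the highest Klf2 and Klf4 levels of the EC clusters, 3008 and 2330 CPM for Klf2 and 1163 and 1262 CPM for Klf4. Their log2 ratios were -0.37 (-0.58 to -0.16) and 0.12 (-0.19 to 0.43). In arterial ECs Nr4a1 had 37 and 13 UMIs, for a log2 ratio of -1.37 (-2.44 to -0.46). Egr1 had 10 and 22 UMIs there, in 6 and 9 nuclei, and its log2 ratio of 1.20 (0.10 to 2.48) was the only one above 0, with an interval clear of it, among the Egr1 ratios of the cell types and EC clusters.

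**Figure D3:**
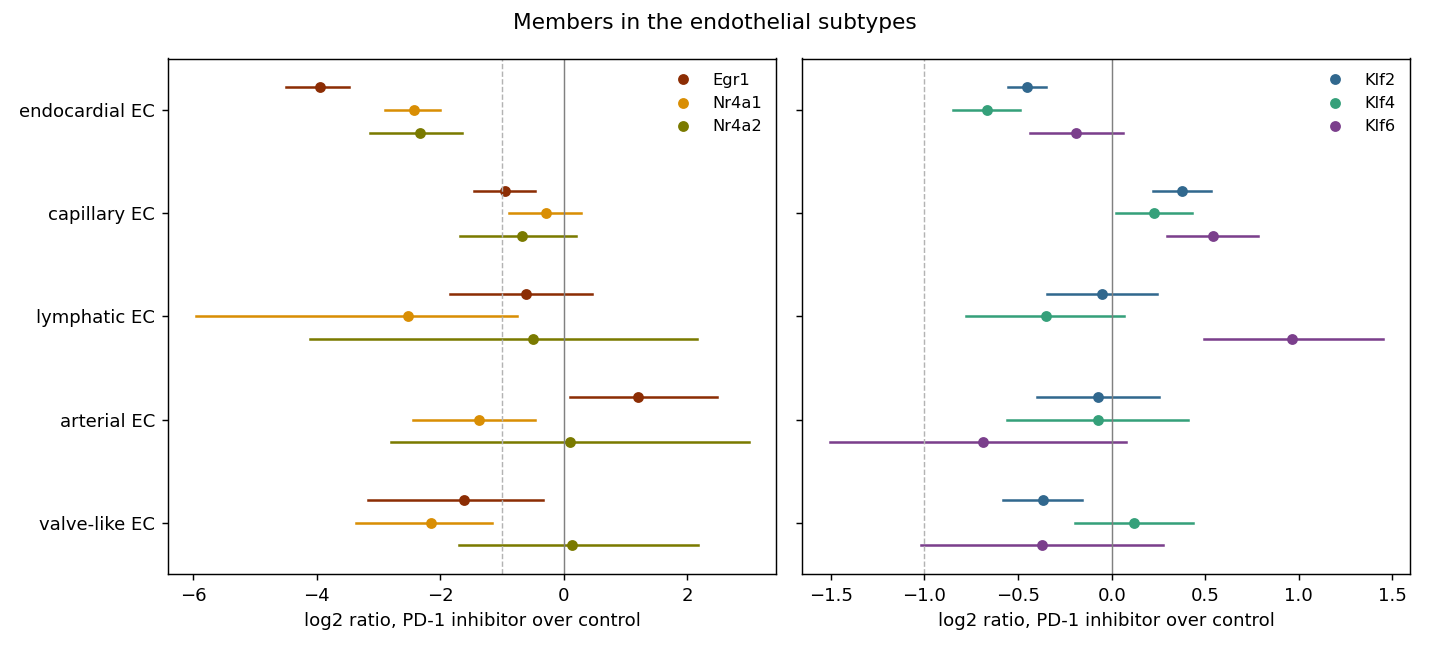
Log2 ratio, PD-1 inhibitor over control, in 5 endothelial clusters for Egr1, Nr4a1 and Nr4a2 (left) and Klf2, Klf4 and Klf6 (right, another scale), with exact intervals at 95% for counting error. In endocardial ECs Egr1 lies at -3.95 and Klf4 at -0.67, and in capillary ECs Egr1 lies at -0.94 and Klf4 at 0.23.

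Because 3 members had helped to form these clusters, the nuclei were clustered again without the members, the AP-1 genes and other immediate early genes among the variable genes, an alternative chosen after the data were seen. The endocardial nuclei then lay in 2 clusters, 1 of which kept its name. These 2 clusters together (1369 and 1455 nuclei) had Egr1 at -3.84 (-4.39 to -3.37), Nr4a1 at -2.29 (-2.76 to -1.87), Klf2 at -0.50 (-0.60 to -0.39) and Klf4 at -0.70 (-0.89 to -0.52). In the capillary cluster Egr1 was at -1.01 (-1.53 to -0.54), Klf2 at 0.38 (0.22 to 0.53) and Klf4 at 0.18 (-0.03 to 0.38), so the interval of Klf4 came to span 0. The arterial cluster grew to 138 and 125 nuclei, with 29 and 22 Egr1 UMIs, at a log2 ratio of -0.48 (-1.36 to 0.36). It still held 168 of the 169 nuclei first called arterial, and other nuclei joined them. The higher Egr1 of the first arterial cluster was thus not seen in this larger cluster, which includes nearly all of its nuclei. Egr3 in the named endocardial cluster alone had 2 and 3 UMIs, for a log2 ratio of 0.13 (-2.90 to 3.81), and in both clusters together 37 and 5, a log2 ratio of -2.95 (-4.77 to -1.72).

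The lower sums came with fewer nuclei that held a UMI, and not only with fewer UMIs in each. Of the control ECs 11.5% had an Egr1 UMI (10.4 to 12.8, exact Clopper-Pearson interval), and of the others 2.87% (2.26 to 3.61), at median depths of 895.5 and 949 UMIs. After every nucleus was thinned to 500 UMIs the shares were 7.66% and 1.54%. An EC nucleus with Egr1 held 2.09 and 1.72 of its UMIs on average. No type is known to lack these genes, so the type with the lowest share stands in for the background: 0 of 175 and 0 of 80 B cells had an Egr1 UMI, which allows shares of up to 1.71% and 3.75%. The Egr1 share of PD-1 inhibitor ECs lay within the limit of the 80 B cells and above that of the 175. In endocardial ECs the shares were 16.1% (14.3 to 18.2) and 1.66% (1.07 to 2.43), the second of which is no higher than these limits. The limits follow from the number of B cell nuclei, so they cannot show whether a share is at background. In fibroblasts the shares were 17.3% (15.8 to 18.8) and 5.03% (4.10 to 6.08).

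For Nr4a1 the share was 9.12% and 3.51% of ECs, 13.7% and 5.28% of fibroblasts and 12.9% and 6.19% of CMs, with MPs low, at 3.28% and 1.12% and median depths of 868 and 938 UMIs. Klf2 was found in 45.9% and 43.7% of ECs, Klf4 in 26.02% and 23.8%, and Klf6 in 16.7% and 17.8%. Adipocytes, at median depths of 1915.5 and 2993.5 UMIs, had a Klf2 UMI in 9.74% of control nuclei, and 2.77% after thinning. In endocardial ECs the Klf4 share was 22.2% (20.1 to 24.5) and 16.8% (14.97 to 18.8), while in capillary ECs it was 26.6% (23.8 to 29.4) and 30.5% (27.04 to 34.1). The shares come from the same UMIs as the ratios, so their like direction is not a separate result.

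Members were also counted together in single nuclei. At least 1 of the 9 genes had a UMI in 68.4% of ECs of the control group and in 59.3% of the other ECs, and 3 or more in 10.6% and 7.35%, or in 3.21% and 1.96% after thinning to 500 UMIs. In endocardial ECs 11.2% and 3.97% of nuclei held 3 or more, and 3.54% and 0.662% after thinning. In capillary ECs the order was the other way, with 6.84% and 9.77%. In valve-like ECs, whose median depths of 1403.5 and 1754 UMIs were above those of endocardial ECs (924 and 982.5), 3 or more members were found in 38.1% and 35.5% of nuclei without thinning. The most members seen in 1 nucleus were 6, in both libraries.

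**Figure D4:**
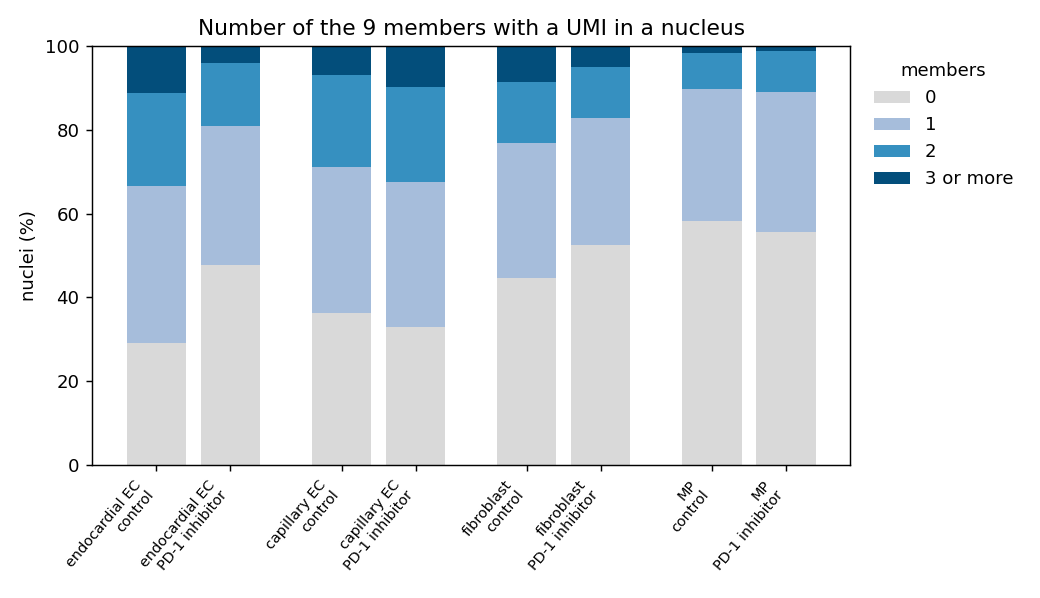
Share of nuclei (%) with a UMI of 0, 1, 2 or at least 3 of the 9 members, in endocardial ECs, capillary ECs, fibroblasts and MPs of each library, without thinning. The dark share of 3 or more is 11.2% in control and 3.97% in PD-1 inhibitor endocardial ECs.

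Within control ECs, immediate early members were found in the same nuclei more often than the product of their shares gives. Nuclei with both Egr1 and Nr4a1 numbered 68, where the product gives 29.5, a ratio of 2.31. For Egr1 and Egr3 the numbers were 14 and 4.49, and for Nr4a1 and Nr4a2 26 and 9.21. Klf2 and Klf4 were found together in 470 nuclei, where the product gives 335, a ratio of 1.404. For Egr1 and Klf2, in contrast, 150 nuclei held both and the product gives 148. Nuclei differ in depth, which raises such ratios for every pair. The EC clusters, whose levels of the members differ, were pooled here, which can raise or lower these ratios. The counts are a description of 1 library. In PD-1 inhibitor ECs, 10 nuclei held both Egr1 and Nr4a1 where the product gives 2.53, and 408 held both Klf2 and Klf4 where it gives 261.

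The levels of the members over cell types were compared with each other and with all other genes, as Pearson's r on the log2(CPM + 1) scale over 14 points, which are 7 cell types in each of 2 libraries and so share libraries and depth. Among the members, r was 0.82 for Egr1 and Nr4a1, 0.82 for Klf2 and Klf4 and 0.66 for Klf2 and Klf6, but -0.25 for Nr4a1 and Klf6. The genes most like the sum of the 9 were Eogt, at 0.97, and Pigt, at 0.94, followed by Dpagt1, Ralgds, Cmpk2, March3, Nck1, Arsa, Xaf1 and Baiap2, from 0.90 down to 0.88. Most like Nr4a1 were Cr2, Egr1 and Ccn1 (0.86 to 0.82), and most like Egr1 were Appbp2, Chst14 and Arl13b (0.86 each). Klf2 was most like Pigt, Ralgds and Dpagt1 (0.96 to 0.93), Klf4 most like Card10, Megf9 and Sema6a (0.95 to 0.94), and Klf6 most like Tpm3 (0.95).

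The members were then set beside the other genes of the same routes in ECs, from lists chosen with earlier results known, where the median log2 ratio of all 10694 genes was 0.01, with 0.795% of them at -1 or lower and 0.832% at 1 or higher. Of 9 measured AP-1 and ATF factors, which are induced with the EGR genes, 3 were at -1 or lower and none at 1 or higher, with a median of -0.45. Fos had 785 and 69 UMIs, for a log2 ratio of -3.46, the lowest in ECs, Fosb -2.35, Junb -1.58 and Maff -0.59. Of 27 other immediate early genes 5 were at -1 or lower and none at 1 or higher, with a median of -0.33. Ccn1, a secreted matrix protein, had 1564 and 267 UMIs, for a log2 ratio of -2.51, and Zfp36, Ptgs2 and Dusp1 were at -1.37, -1.36 and -1.22. Thus 3 and 5 genes of these lists lay beside Egr1 and Nr4a1, while most of their genes did not reach -1.

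The factors that act on the EGR and NR4A genes were at smaller ratios in ECs. The EGR corepressors Nab2 and Nab1, themselves EGR targets in the case of Nab2, were at -0.45 (-0.91 to just under 0) and -0.18 (-0.42 to 0.06). Of 6 serum response factor genes and partners, 1 was at -1 or lower: Myocd, a coactivator of smooth and cardiac muscle, with 115 and 42 UMIs, at a log2 ratio of -1.40. Srf, Mrtfa and Elk3 were at -0.38, -0.19 and -0.13. Of 8 CREB factors and coactivators none reached -1 or 1, with Crem at -0.53, Crtc3 at -0.42, Crtc2 at 0.31 and Crebbp at -0.17. Of 11 other orphan nuclear receptors none did, with Nr6a1 at -0.79, Esrra at 0.79, Nr2f6 at -0.50 and Nr1d1 at 0.49.

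For the KLF genes, the 12 genes of the ERK5 and MEF2 route had a median of -0.07 in ECs and none at -1 or 1. The MEF2 factors were on the lower side, with Mef2c at -0.60 (-0.73 to -0.48) from 1389 and 889 UMIs, Mef2a at -0.31 and Mef2d at -0.27, and the kinase Map2k5 was at -0.40. The 10 endothelial genes known to be activated by Klf2 and Klf4 lay on both sides of 0, with a median of -0.11. Thbd, the anticoagulant thrombomodulin, was at 0.34 (0.23 to 0.44) and Ptgds at 0.45 (0.04 to 0.87), whereas Dll4 was at -0.52 (-0.79 to -0.25) and Cav1 at -0.44 (-0.53 to -0.35). Of 10 other KLF genes none reached -1 or 1, with Klf9, a glucocorticoid target, at 0.54 (0.39 to 0.69), Klf12 at -0.38, Klf8 at 0.37 and Klf16 at 0.24.

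Lists of other fast responses were counted in the same way in ECs. Of 14 heat shock genes 1 was at -1 or lower, Hspa1b at -1.02, with Hspa1a at -0.70, Dnaja1 at -0.36 and Hsph1 at -0.32, and a median of -0.12. Of 10 NF-kB response genes 1 was, Ccl2 at -1.13, with Nfkbiz at -0.62, Relb at -0.39 and Tnfaip3 at -0.35, and a median of -0.24. Of 14 circadian clock genes 1 was at 1 or higher, Dbp at 1.65 (0.85 to 2.60) from 16 and 50 UMIs, with Tef at 0.93, Nfil3 at -0.57 and Cry1 at -0.55. Of 11 glucocorticoid response genes none reached -1 or 1, and the median was 0.12, with Ddit4 at 0.75, Zbtb16 at 0.63, Klf9 as given with the KLF genes and Errfi1 at -0.53. Mitochondrial transcripts made up 1.49% and 1.74% of EC UMIs, ribosomal protein transcripts 0.717% and 1.02% and Malat1 4.21% and 4.08%. Fibroblast markers summed to 2913 and 3956 CPM in ECs, a log2 ratio of 0.44. Their part in the member ratios, and that of the time of harvest, dissection and nuclei isolation, was not tested, and with 1 library per group it cannot be told apart from treatment.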

How the data were processed

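The authors deposited a matrix of raw UMI counts per gene and nucleus for each group, from hearts profiled with the GEXSCOPE kit. The submitters' processing notes name the builds GRCm38 and mm10, and the aligner and counter are not given in the sources used here. The members and all gene lists were chosen with earlier results of these data known.

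Barcodes under 200 genes or over 20% mitochondrial UMIs (83 control and 15 PD-1 inhibitor barcodes for the latter) were dropped, and doublets called with Scrublet in scanpy 1.11.5 (592 and 308) were removed. Both libraries were clustered together (2000 variable genes, 30 principal components, 15 neighbours, Leiden resolution 1, igraph 0.11.9). A cluster was named where at least 3 markers passed 5% of nuclei and 2-fold, unless markers or leading genes of another type were also present, cycling genes were found in at least 50% of nuclei, or depth was low.

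UMIs were summed by population and library. Ratios of rates carry exact conditional binomial intervals, levels exact Poisson and shares exact Clopper-Pearson intervals (scipy 1.17.1), all at 95%, with 0.5 UMI added in the ratio itself. Counts of members and of all genes used genes with 50 or more UMIs over the 2 libraries. UMIs are molecules as counted, and intervals and floors of 3 UMIs cover counting error only. Depth ranged from 12103951 UMIs (control) to 10290085 (PD-1 inhibitor) in kept nuclei. All 9 members are named wherever they had the counts, with up to 4 genes of each other list by size of ratio and the genes most like each member by correlation. The code was tested on simulated data, and alternatives were tried for the filters, doublets, clustering, depth, scaling, added UMI and count limits. A protein comparison was not run.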

Additional observations from a re-analysis of the deposited data

Results flagged for a closer look

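The ratios of 3 members lay on opposite sides of 0 in 2 populations, with both intervals clear of 0. Egr1 had a log2 ratio of -3.95 (-4.50 to -3.48) in endocardial ECs and 1.20 (0.10 to 2.48) in arterial ECs. The arterial value rests on 10 and 22 UMIs. It was -0.48 (-1.36 to 0.36) in the larger arterial cluster seen when nuclei were clustered without the response genes. Klf2 had a log2 ratio of -0.45 (-0.56 to -0.35) in endocardial ECs and 1.37 (0.74 to 2.00) in B cells, the latter from 46 and 45 UMIs. Klf4 had a log2 ratio of -0.67 (-0.85 to -0.49) in endocardial ECs and 0.23 (0.02 to 0.43) in capillary ECs. When nuclei were clustered without the response genes, the capillary Klf4 value was 0.18 (-0.03 to 0.38), so its interval spanned 0. With 1 library per group these differences between populations were not tested.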

How the results depend on the processing

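With 1 library per group no library could be left out. No paired analysis was possible because each group has 1 library and no test was made. Over 9 populations and 13 alternatives, 108 of 117 values of the sum of the 9 genes stayed within the counting interval of the reported value, as did 635 of 663 values of single members, and 120 of 135 counts of members were within 1.5 times the reported count. In ECs the sum of the 9 genes ranged from -0.42 to -0.35, Egr1 from -2.75 to -2.27, Nr4a1 from -1.79 to -1.67, Klf2 from -0.21 to -0.15 and Klf4 from -0.29 to -0.21.

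The log2 ratio of the sum moved to -0.63 in fibroblasts with the same mix of clusters in both libraries, to -0.46 in CMs with the same mix and to -0.58 in CMs with at most 5% mitochondrial UMIs. After thinning to 500 UMIs it was 0.045 in mural and -0.55 in mesothelial cells. In endocardial ECs it was -0.52 with at least 500 genes per nucleus, -0.74 with at most 5% mitochondrial UMIs, -0.58 with doublets kept and -0.52 at Leiden resolution 2. These settings also changed which nuclei were called endocardial. Egr3 turned to 0.13 in the endocardial cluster that kept its name when nuclei were clustered without the response genes, a setting added after the data were seen.

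The count of members at a log2 ratio of -1 or lower was 1 in CMs (3 as reported) with at most 5% mitochondrial UMIs and after thinning, 1 in MPs (2 as reported) with at least 500 genes, and 1 in mesothelial cells (2 as reported) and 2 in endocardial ECs (4 as reported) with at most 5% mitochondrial UMIs. Egr1 in CMs, Egr1 and Nr4a1 in MPs and mesothelial cells, and Egr1, Nr4a1 and Nr4a2 in endocardial ECs were at -1 or lower under all 13 alternatives, so these left the count only through the minimum of 50 UMIs. It was 0 as reported in mural cells and became 2 with doublets kept and 1 without response genes, with a minimum of 20 UMIs or at the milder limit of 1.5-fold. It became 1 in T cells after thinning. In capillary ECs it became 1 with doublets kept, with the mean over nuclei, after thinning and without response genes, and 2 at the milder limit. The share of all genes was not counted under these alternatives, so nothing is read from the changed counts. After thinning, 3 or more members were found in 3.21% and 1.96% of control and PD-1 inhibitor ECs and in 3.54% and 0.662% of endocardial ECs. Among single members, Nr4a3 in CMs was -2.34 as a mean over nuclei, and after thinning Nr4a1 in mesothelial cells was -2.75, Klf2 in T cells -1.02 and Klf4 in mural cells 0.94. Other causes were not tested. A count of 50 UMIs cannot show small ratios, and in adipocytes, glial cells and B cells the depth limits every member.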
